A study of Pongo abelii with 8 samples.

Results

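Annexins, S100 proteins, galectins and caveolins are small families of proteins that sit at or near the cell membrane, and 38 of their genes were measured among 11963 genes in orangutan iPSCs and skin fibroblasts. Members were the probe sets whose platform annotation gave exactly 1 symbol and whose symbol belonged to ANXA, to S100A, S100B or S100P, to LGALS followed by a number, or to CAV1, CAV2 and CAV3. This gave 54 of the 22277 probe sets on the array, for 11 annexin, 16 S100, 8 galectin and 3 caveolin genes. Each gene is counted once, by the probe set whose mean over the 8 arrays was highest.

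Annexins bind acidic phospholipids in the presence of calcium, and so gather on the inner face of membranes when calcium rises. S100 proteins are small EF-hand calcium sensors that change shape on binding calcium and then dock on other proteins, several annexins among them. Galectins are lectins that bind beta-galactosides on glycoproteins, inside and outside the cell. Caveolins insert into the plasma membrane and, with the cavins, form the flask-shaped pits called caveolae, which are abundant in fibroblasts, adipocytes and endothelial cells. S100A4 is often used as a marker of fibroblasts under the name fibroblast-specific protein.

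The arrays came from 2 Sumatran orangutans, the female KB10460, aged 43, and the male KB10973, aged 29, with 1 culture of skin fibroblasts from an upper limb biopsy and 3 iPSC colonies from each animal. The iPSCs were made from these fibroblasts with retroviruses that carried human OCT4, SOX2, KLF4 and c-MYC, and were picked and expanded on inactivated mouse embryonic fibroblasts. The methods place the fibroblasts in serum and the iPSCs in serum replacement with bFGF, whereas the series text names the serum replacement medium for both, and where the media differed, medium and cell type cannot be told apart. The one-colour arrays, 1 for each culture, were made for human transcripts, and the match of each probe to the orangutan transcript was not examined here. Values are log2 expression values normalized by the authors with RMA, and array medians lay between 3.74 and 3.82. Among the 15 pairs of iPSC arrays r was 0.986 to 0.994, highest between KB10973 colonies 1 and 2, and with those 2 averaged 12 members were still called. Since 3 colonies share an animal, p-values measure the spread between these cultures and not between animals.

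The cell type labels were checked against markers. All 6 measured pluripotency markers, of 8 listed, were higher in the iPSCs. The other listed markers, POU5F1 (OCT4) and TDGF1, had no probe set annotated with that symbol alone and were not checked. Of the fibroblast markers 9 of 10 were lower, while THY1 was higher (3.71 and 4.35 in fibroblasts, 6.62 to 7.21 in iPSCs). DCN, LUM and FAP, which fibroblasts express strongly, lay between 8.23 and 12.5 in the fibroblasts and between 2.46 and 3.82 in all 6 colonies. COL3A1, FBN1 and PDGFRB also fell to low values, at 2.97 to 4.33, 3.88 to 4.64 and 4.45 to 4.72 in the colonies. COL1A2, COL1A1 and VIM fell without reaching the low end of the scale. COL1A2 was 12.83 and 12.95 in the fibroblasts and 6.65 to 8.26 in the colonies, COL1A1 7.21 and 8.81 against at most 6.89, and VIM 12.04 and 12.40 against 8.97 to 9.83. The mean of the fibroblast list was 9.39 to 9.78 in fibroblasts and 4.98 to 5.51 in iPSCs. Of 5 measured endothelial markers 2 were lower (PECAM1 and ENG), 1 was higher (TEK) and 2 were not called. PECAM1 was 8.10 and 6.65 in the fibroblasts and 3.60 to 4.24 in the colonies. Of 6 measured epithelial markers 5 were higher, and of 5 melanocyte and glial markers 1 (PMEL) was higher, with the rest not called. The part of such cells in the member values was not tested.

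Of the 38 members, 12 had lower and 0 had higher values in the iPSCs than in the fibroblasts, and 26 were not called. A call needed a difference over 1.5-fold and an adjusted p under 0.05 (limma, two-sided, Benjamini-Hochberg over all probe sets) for 6 iPSC against 2 fibroblast arrays. The 12 lower members were ANXA1, ANXA4, ANXA5, ANXA7, S100A4, S100A6, S100A11, S100A13, LGALS1, LGALS3, LGALS8 and CAV1. They make up 31.6% of the members, while 11.5% of all genes were called lower, 15.2% higher and 26.7% either way. By family, 4 of 11 annexin, 4 of 16 S100, 3 of 8 galectin and 1 of 3 caveolin genes were lower. The drop exceeded 4-fold in 7 members, against 3.36% of all genes. The median log2 difference (iPSC minus fibroblast) was -0.18 over the members and -0.00 over all genes. In bulk RNA, fewer cells of a type and less RNA per cell cannot be told apart.

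**Figure D1:**
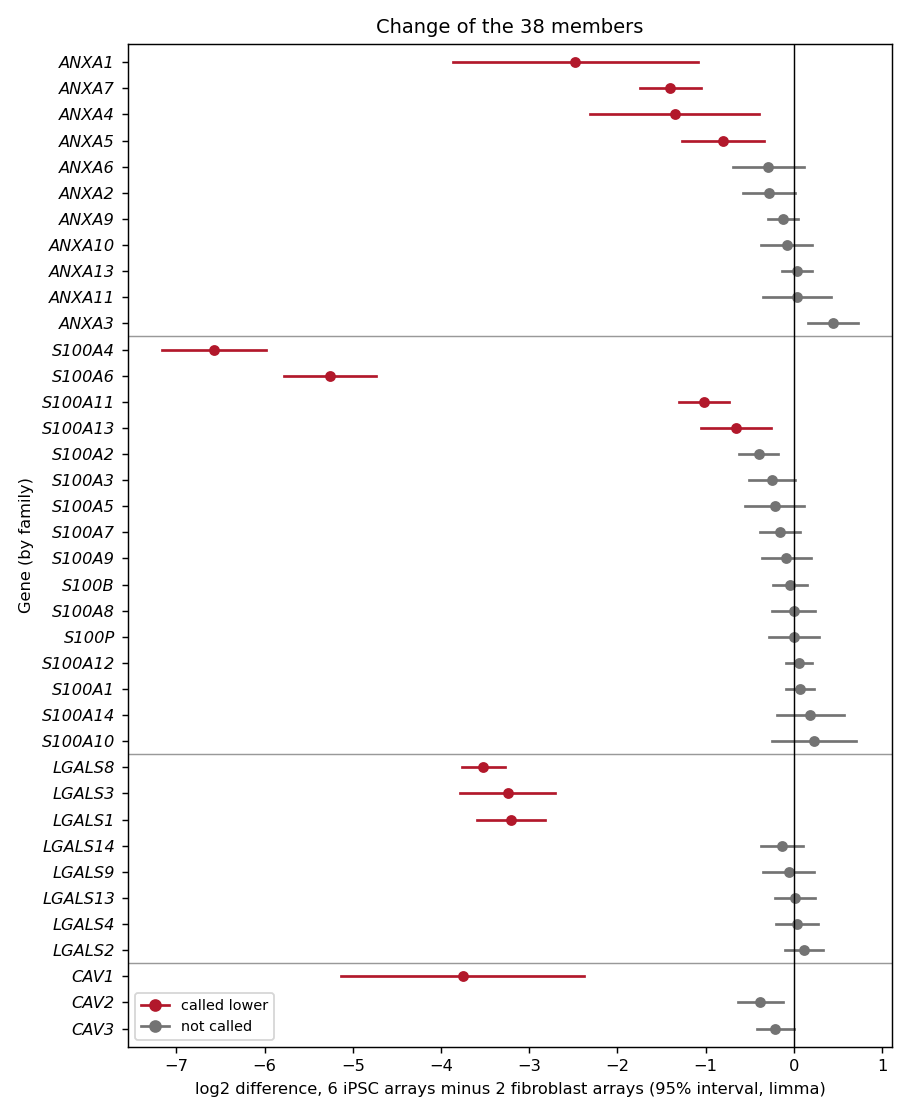
Log2 difference (iPSC mean minus fibroblast mean) of the 38 members on the horizontal axis, sorted within each family, with 95% confidence intervals from limma (6 iPSC and 2 fibroblast arrays) and with called members in colour. The called members all lie left of 0, and the greatest drops are those of S100A4 (-6.57) and S100A6 (-5.26).

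S100A4, which binds nonmuscle myosin and promotes cell motility, had the largest difference of the members. Its log2 value was 10.61 in the KB10460 fibroblasts and 11.56 in the KB10973 fibroblasts. In the colonies it was 5.06, 4.30 and 4.31 for KB10460 and 4.56, 4.41 and 4.45 for KB10973. Every colony was far below both fibroblast cultures, and the colonies lay close to each other apart from KB10460 colony 1. The log2 difference was -6.57 ± 0.26 (SE, n = 6 and 2 arrays), a level 95.2-fold lower (limma, adjusted p = 1.8e-07). Apart from KB10460 colony 1, the colony values lay under 5, though each was above the median of its array. Where such values hold background signal, this fold may be understated. Among all genes, 21 fell by more.

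S100A6, also called calcyclin, was the next. It was 12.15 and 12.13 in the fibroblasts of KB10460 and KB10973. The colonies read 6.55, 6.77 and 6.58 for KB10460 and 7.20, 6.74 and 7.45 for KB10973. The fibroblasts differed by little while the colonies spanned nearly a log2 unit, and the groups did not overlap. The log2 difference was -5.26 ± 0.23 (SE), 38.3-fold lower (limma, adjusted p = 3.5e-07), and 54 genes fell by more.

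S100A11, a partner of ANXA1, fell by less. It was 10.25 and 10.16 in the fibroblasts and had a lowest, median and highest value of 8.92, 9.16 and 9.44 in the colonies, with no overlap. The log2 difference was -1.02 ± 0.13 (SE), 2.03-fold lower (limma, adjusted p = 0.00026). S100A13, which takes part in the export of FGF1, was 7.47 and 7.60 in fibroblasts and 6.36, 6.97 and 7.06 (lowest, median, highest) in the colonies. Its log2 difference was -0.66 ± 0.18 (SE; limma, adjusted p = 0.019). The call for S100A13 was lost without either fibroblast array (adjusted p = 0.068 without KB10460 and 0.11 without KB10973), without KB10973 colony 3 (a log2 difference of -0.56, below 1.5-fold), with arrays weighted by quality (0.079), with the Benjamini-Yekutieli adjustment (0.21) and when its 2 probe sets were averaged (-0.32, adjusted p = 0.067). A 2-fold threshold also lost the call, as the drop was 1.58-fold. Its second probe set stayed between 3.16 and 3.51 on all arrays, with a difference of 0.01.

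S100A10, the partner that holds ANXA2 at the membrane and that has lost calcium binding, was not called. It was 9.07 in the KB10460 fibroblasts and 9.86 in the KB10973 fibroblasts. The colonies read 9.44, 9.95 and 9.78 for KB10460 and 9.67, 9.46 and 9.86 for KB10973. The groups overlapped, and the fibroblast cultures differed from each other by more than the colonies did. The log2 difference was 0.23 (95% interval -0.25 to 0.70; limma, adjusted p = 0.49). Its direction turned with the fibroblast array left out, from 0.63 without KB10973, where it was called higher, to -0.17 without KB10460. Each of these values rests on the fibroblast array that remained.

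The other 11 S100 genes stayed below a log2 value of 5 on all 8 arrays and none was called. Among them were S100A8, S100A9 and S100A12, the calgranulins of neutrophils and monocytes, S100A7 (psoriasin) of inflamed epidermis, and S100B of glial and melanocytic cells. S100A8 was 3.04 and 3.12 in the fibroblasts and 2.88 to 3.23 in the colonies. S100A2, found in basal epithelial cells, had a log2 difference of -0.40 (limma, adjusted p = 0.012), which is under 1.5-fold. The differences of the others lay between -0.25 (S100A3) and 0.19 (S100A14), with S100A1, S100A5, S100A12 and S100P among them. The defining keratinocyte markers KRT5 and KRT14 lay between 2.99 and 3.51 on all arrays and the leukocyte marker PTPRC between 2.87 and 3.33. Other markers on those lists were called. Of 7 measured keratinocyte genes 1 was higher, SFN, which was 5.70 and 6.29 in the fibroblasts and 10.14 to 11.19 in the colonies. Of 6 measured leukocyte genes 1 was lower, CD14, which was 7.99 and 5.42 in the fibroblasts and 3.22 to 3.58 in the colonies. The mean of the keratinocyte list was 3.93 to 3.95 in fibroblasts and 4.50 to 4.62 in iPSCs, and that of the leukocyte list 3.63 to 4.10 and 3.20 to 3.32.

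**Figure D2:**
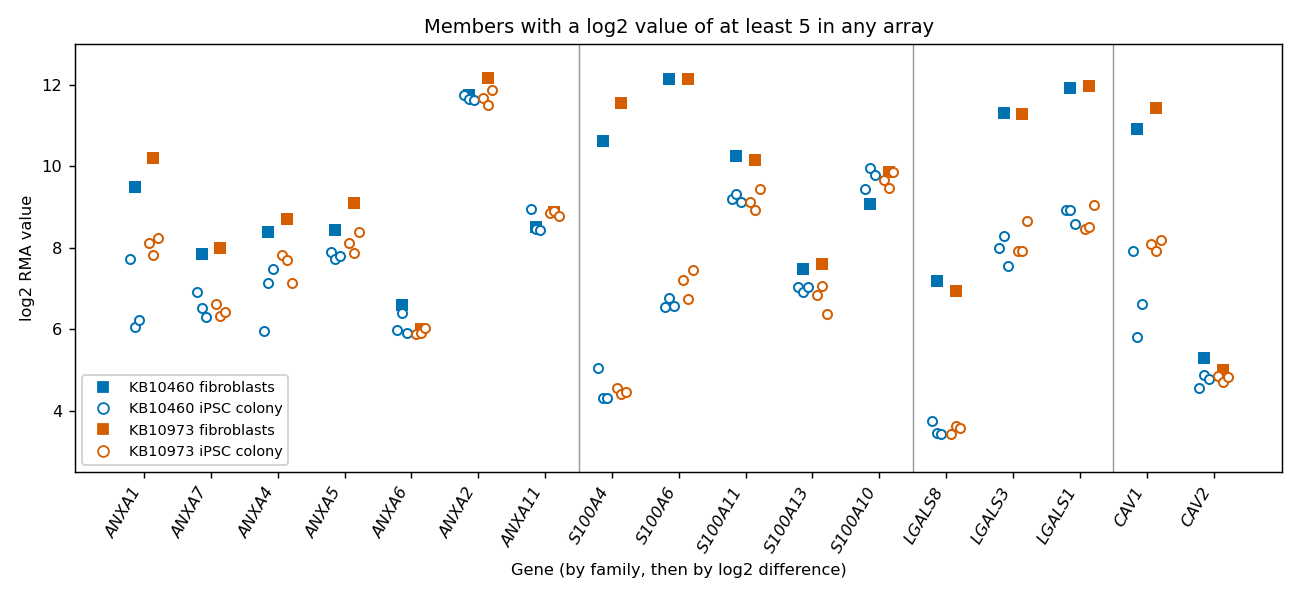
Log2 expression value of the members with a value of at least 5 on some array, with 1 point per array (squares fibroblasts, circles iPSC colonies, coloured by donor). S100A4 and S100A6 separate most between the cell types, and S100A10, ANXA2 and ANXA11 overlap.

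Most S100A genes lie side by side in the genome. By symbol, 34 of the 38 members were placed in the gene order of an orangutan assembly, NHGRI_mPonAbe1-v2.0. On chromosome 1 the run S100A13, S100A1, S100A14, S100A16, S100A2, S100A3, S100A4, S100A5 and S100A6 has no other protein-coding gene in it, and S100A16 has no member probe set. S100A4 and S100A6, with differences of -6.57 and -5.26, flank S100A5, whose difference was -0.21 (limma, adjusted p = 0.35). S100A3, beside S100A4 on its other side, had a difference of -0.25 (adjusted p = 0.15). S100A3 reached 3.52 and S100A5 reached 4.01 at most on any array, so both were low in fibroblasts too. S100A8, S100A12 and S100A9 come next among the members, and 44 protein-coding genes further on S100A11, called lower, is separated by 1 gene from S100A10, which was not called.

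**Figure D3:**
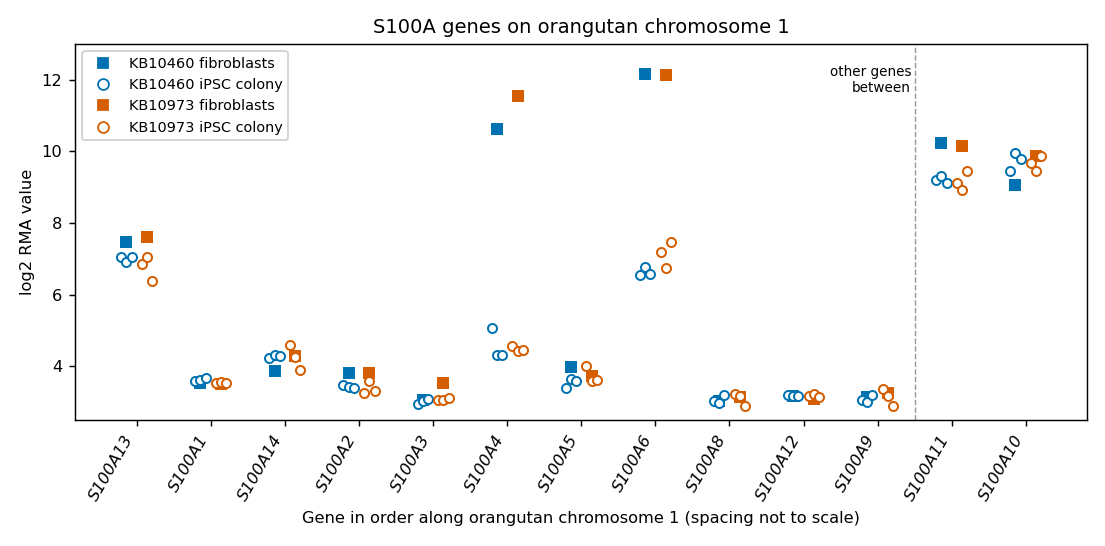
Log2 value of S100A genes on each of 8 arrays (squares fibroblasts, circles iPSC colonies, coloured by donor), in their order along orangutan chromosome 1 with spacing not to scale. S100A4 (means of 11.09 and 4.51 in fibroblasts and iPSCs) and S100A6 (12.14 and 6.88) lie among neighbours that are low in both cell types.

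The 3 galectins that reached 5 on some array were each called lower, as were 1199 of the 5483 such genes among all genes. LGALS8 reached 5 only in the fibroblasts, so this count follows in part from the level used. LGALS1, the single-domain galectin-1 of connective tissue, was 11.92 and 11.96 in the fibroblasts and 8.45, 8.76 and 9.04 (lowest, median, highest) in the colonies. Its log2 difference was -3.20 ± 0.17 (SE), 9.21-fold lower (limma, adjusted p = 1.2e-06). LGALS3, galectin-3, which joins a lectin domain to a self-associating tail, was 11.31 and 11.29 in the fibroblasts and 7.55, 7.96 and 8.65 in the colonies. Its difference was -3.24 ± 0.24 (SE), 9.48-fold lower (limma, adjusted p = 9.9e-06). Both genes kept a signal well above the array median in every colony, and neither overlapped between cell types.

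LGALS8, galectin-8, carries paired lectin domains and marks damaged vesicles for autophagy. Its probe set with the highest mean was 7.18 and 6.94 in the fibroblasts and 3.42, 3.51 and 3.74 in the colonies. The difference was -3.52 ± 0.11 (SE), 11.5-fold lower (limma, adjusted p = 3.4e-08). Its value in every colony lay below the median of that array, and where such values are background the fold is a lower bound. The gene has 6 probe sets, of which 2 were called lower and 4 were not, with differences from -3.52 to 0.04. The other 5 stayed between 2.78 and 4.30 on all arrays, fibroblasts included. Averaged over the 6, the difference was -0.88 (adjusted p = 1.9e-05). The fold for LGALS8 therefore depends on the probe set read. LGALS2, LGALS4, LGALS9, LGALS13 and LGALS14, several of them known from gut or placenta, stayed under 5 on all arrays, with differences between -0.14 and 0.11.

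CAV1, the scaffold protein of caveolae, was 10.92 and 11.43 in the fibroblasts of KB10460 and KB10973. The colonies read 7.91, 5.81 and 6.62 for KB10460 and 8.08, 7.92 and 8.20 for KB10973. All colonies were below the fibroblasts, and KB10460 colonies 2 and 3 were lowest. The log2 difference was -3.75 ± 0.61 (SE), 13.5-fold lower (limma, adjusted p = 0.0013). The other CAV1 probe set gave -3.89 ± 0.41 (SE).

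CAV2, the partner of CAV1 in caveolae and its next neighbour in gene order, depended on the probe set. The probe set with the highest mean over the 8 arrays was 5.29 and 4.99 in the fibroblasts and 4.56, 4.79 and 4.88 in the colonies, and was not called (-0.38, adjusted p = 0.031, under 1.5-fold). A second probe set was 8.12 and 8.29 in the fibroblasts. In the colonies it was 3.21, 3.20 and 3.12 for KB10460 and 3.08, 3.20 and 3.58 for KB10973. The second probe set was low in every colony and high in both fibroblast cultures, with a log2 difference of -4.98 ± 0.13 (SE; limma, adjusted p = 1.0e-08). Its colony values, too, lay below the array medians, so the size of this difference may be only a lower bound. The third was also called lower (-1.13), and averaged over the 3 probe sets the difference was -2.16. A choice by the mean of the cell type means, made after the values were seen, takes the second probe set and raises the number of lower members from 12 to 13. CAV3, the caveolin of muscle, stayed under 5 (-0.21, adjusted p = 0.13).

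**Figure D4:**
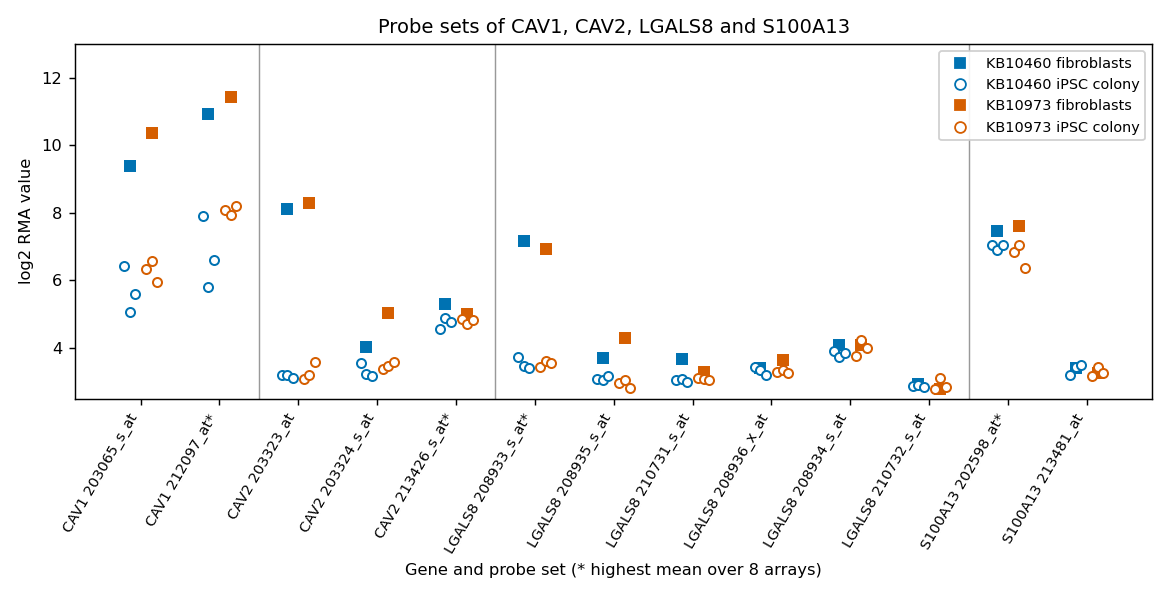
Log2 value by array for each probe set of CAV1, CAV2, LGALS8 and S100A13, with 1 point per array (squares fibroblasts, circles iPSC colonies, coloured by donor) and an asterisk at the probe set with the highest mean. The CAV1 probe sets run together (-3.75 and -3.89), while those of CAV2 range from -4.98 to -0.38 and those of LGALS8 from -3.52 to 0.04.

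Of the 54 member probe sets, 17 were called lower and 0 higher, where 9.6% of all probe sets were called lower and 12.2% higher. Among the members, 10 genes had several probe sets and 28 had 1.

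ANXA1, an anti-inflammatory annexin that acts through formyl peptide receptors, was 9.48 in the KB10460 fibroblasts and 10.19 in the KB10973 fibroblasts. The colonies read 7.71, 6.05 and 6.22 for KB10460 and 8.11, 7.83 and 8.24 for KB10973. All colonies lay below the fibroblasts, with KB10460 colonies 2 and 3 apart from the rest. The log2 difference was -2.48 ± 0.61 (SE), 5.57-fold lower (limma, adjusted p = 0.014). The call was lost without the KB10973 fibroblasts (-2.12, adjusted p = 0.099), with weighted arrays (0.060), with colonies averaged within donor (0.058) and with Benjamini-Yekutieli adjustment (0.14).

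ANXA7 (synexin), which promotes membrane fusion, was 7.84 and 7.99 in the fibroblasts and 6.30, 6.47 and 6.92 (lowest, median, highest) in the colonies. The difference was -1.40 ± 0.15 (SE; limma, adjusted p = 0.00013), and both of its probe sets were called. ANXA7 was the annexin whose call held in all 20 alternative settings.

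ANXA5, which binds exposed phosphatidylserine and is used to stain dying cells, was 8.44 and 9.09 in the fibroblasts and 7.73, 7.88 and 8.39 in the colonies. The highest colony was close to the lower fibroblast culture. The difference was -0.80 ± 0.21 (SE; limma, adjusted p = 0.016), and without the KB10973 fibroblasts it was -0.48 (adjusted p = 0.17). The call was also lost with weighted arrays (0.057), with colonies averaged within donor (0.14) and with Benjamini-Yekutieli adjustment (0.17). A 2-fold threshold lost it too, as the drop was 1.74-fold.

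ANXA4, which is best known from secretory epithelia, was 8.40 and 8.70 in the fibroblasts. The colonies read 5.95, 7.12 and 7.47 for KB10460 and 7.82, 7.70 and 7.13 for KB10973. The difference was -1.35 ± 0.42 (SE; limma, adjusted p = 0.040). It was lost in 7 of the settings, among them leaving out either fibroblast array (adjusted p = 0.11 without KB10460 and 0.18 without KB10973) or KB10460 colony 2 (0.067), KB10460 colony 3 (0.053) or KB10973 colony 3 (0.070), weighting arrays (0.12) and Benjamini-Yekutieli adjustment (0.42). Its second probe set missed the threshold (-1.18, adjusted p = 0.061).

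ANXA2 and ANXA11 had high signals in both cell types and were not called. ANXA2, which forms a heterotetramer with S100A10, was 11.75 and 12.17 in the fibroblasts and 11.49, 11.66 and 11.88 in the colonies. The groups overlapped, with a difference of -0.28 (95% interval -0.58 to 0.01; limma, adjusted p = 0.15). Its 3 probe sets ranged from -0.28 to -0.27, and all carry the suffix that marks probes shared with other transcripts, so ANXA2 and near-identical copies may not be told apart. ANXA11, a partner of S100A6, was 8.51 and 8.88 in the fibroblasts and 8.43, 8.82 and 8.95 in the colonies, with a difference of 0.04 (95% interval -0.35 to 0.42). ANXA6 was also not called (-0.29, 95% interval -0.69 to 0.11).

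Of the low annexins, ANXA3 was 3.40 and 3.12 in the fibroblasts and 3.53, 3.74 and 3.87 in the colonies. It was the member whose iPSC arrays all lay above the fibroblasts, with a difference of 0.45 (limma, adjusted p = 0.023) that is under 1.5-fold. Without the KB10460 fibroblasts ANXA3 was called higher (0.59, adjusted p = 0.024). ANXA9, ANXA10 and ANXA13, which are restricted to few tissues, had differences of -0.12, -0.08 and 0.03.

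Counted by arrays alone, 16 members had all colonies below both fibroblast cultures, 1 had all above and 21 overlapped, while 19.7% of all genes had all colonies below, 23.6% all above and 43.3% either. In total 21 members stayed below 5 on all arrays (4 annexin, 11 S100, 5 galectin and 1 caveolin gene). Their values lay between 2.88 and 4.59 and none was called. Over all genes, 6480 of 11963 stayed below 5 on all arrays, and 342 of those were called. These 21 members sit near the low end of the scale, where folds are understated.

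Known pairs of an annexin and an S100 protein differed in how both members read. ANXA1 and S100A11 were both lower (-2.48 and -1.02). ANXA2 and S100A10 were neither of them called (-0.28 and 0.23). ANXA11 was not called (0.04) and S100A6 was lower (-5.26). These pairs were chosen with the values known, and no test compares one pair with another.

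The second question was whether the iPSCs of the animals differed. Between the KB10973 and KB10460 colonies, 3 arrays each, 0 members were called, against 0.142% of all genes. At an unadjusted p under 0.05 there were 4 members (10.5%, against 11.8% of all genes), ANXA1, CAV1, S100A6 and LGALS2. ANXA1 was higher by 1.40 ± 0.40 (SE) in KB10973 (limma, adjusted p = 0.30), and CAV1 by 1.29 (adjusted p = 0.39). The S100A6 difference was 0.50 (adjusted p = 0.39). Without KB10460 colony 1, ANXA1 (1.93, adjusted p = 0.0041) and CAV1 (1.85, adjusted p = 0.022) were called, beside 0.351% of all genes higher and 0.468% lower. KB10460 colony 1 was the colony of that animal nearest to those of KB10973 in ANXA1 (7.71) and CAV1 (7.91). Leaving it out thus lessened the spread within KB10460 and widened the gap between the animals. No member was called with any other colony left out.

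Of the members, CAV1, ANXA1 and ANXA4 varied most among colonies. Over the 6 colonies the SD was 0.97 for ANXA1, 0.98 for CAV1 and 0.68 for ANXA4, at percentiles 99.8, 99.8 and 99.2 of the SDs of all genes. The spread from lowest to highest colony was 4.55-fold for ANXA1, 5.22-fold for CAV1 and 3.67-fold for ANXA4. KB10460 colonies 2 and 3 were lowest in ANXA1 and CAV1, while ANXA4 was lowest in KB10460 colony 1.

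A list of 6 measured markers of early differentiation also varied among the colonies, and its members did not follow ANXA1 and CAV1 alike. GATA6, an endoderm factor, was 5.88, 8.86 and 9.03 in KB10460 colonies 1 to 3 and 7.33, 6.05 and 8.28 in those of KB10973. FOXA2, also of endoderm, was 3.43, 4.95 and 5.58 in KB10460 and 3.94, 3.69 and 4.13 in KB10973. TBXT, of early mesoderm, was 4.74, 6.33 and 6.45 in KB10460 and 6.02, 6.22 and 7.34 in KB10973. SOX17, of endoderm, was 3.66, 4.62 and 4.15 in KB10460 and 3.84, 3.49 and 3.82 in KB10973. KB10460 colonies 2 and 3, lowest in ANXA1 and CAV1, were thus highest in GATA6, FOXA2 and SOX17, but KB10973 colony 3 had the highest ANXA1, CAV1 and TBXT together with a GATA6 value of 8.28. AFP, of fetal liver and yolk sac, was 6.27, 5.43 and 6.37 in KB10460 and 6.35, 5.51 and 5.95 in KB10973, without setting KB10460 colonies 2 and 3 apart. CDX2 stayed between 3.69 and 4.02 in the colonies. Of this list AFP, TBXT and GATA6, 3 of 6 measured genes, were higher in the iPSCs than in the fibroblasts, and its mean log2 value was 3.66 to 3.90 in fibroblasts and 4.61 to 5.93 in iPSCs. The part of this list in the spread of ANXA1 and CAV1 was not tested.

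**Figure D5:**
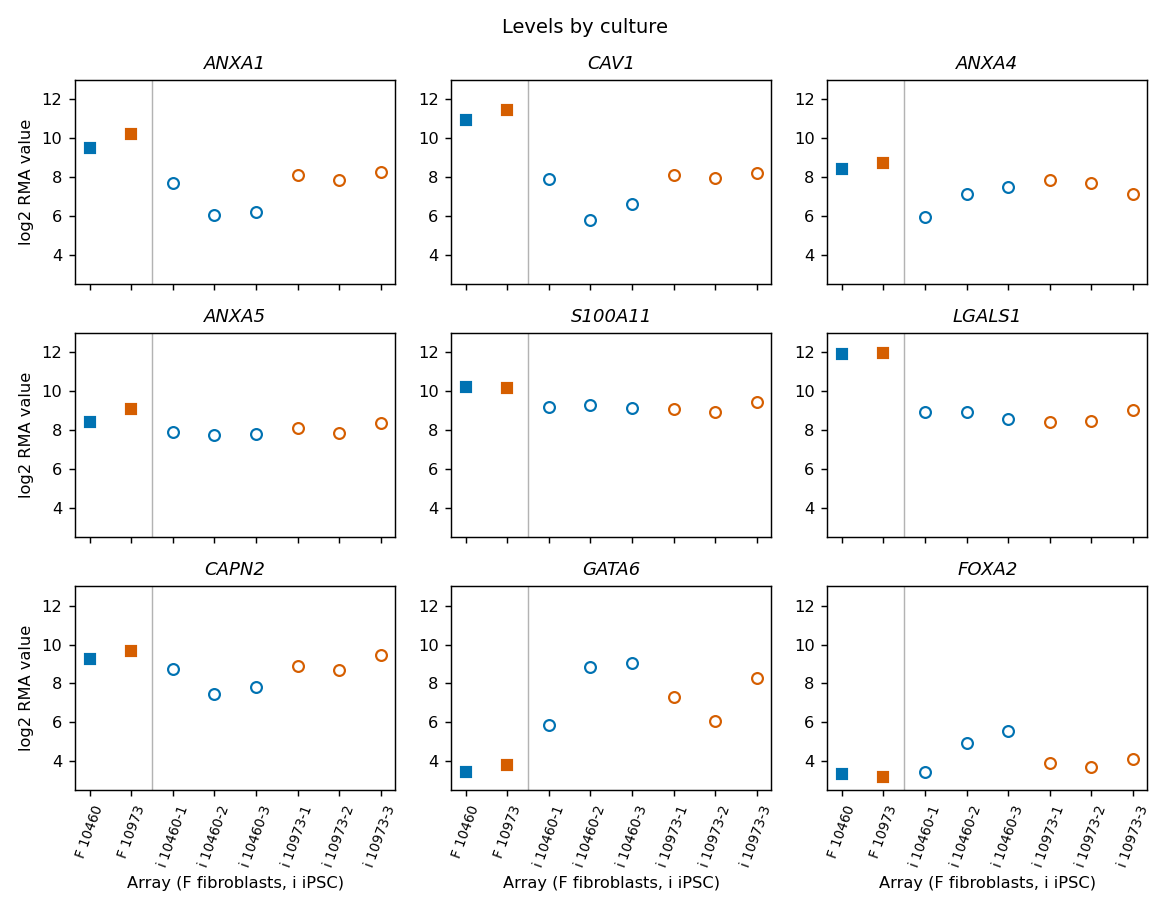
Log2 value of 6 members (ANXA1, CAV1, ANXA4, ANXA5, S100A11 and LGALS1), of the calpain gene CAPN2 and of the endoderm genes GATA6 and FOXA2, with 1 point for each of the 2 fibroblast arrays (squares, F) and 6 iPSC colonies (circles, i), coloured by donor. KB10460 colonies 2 and 3 have the lowest ANXA1 (6.05 and 6.22) and CAV1 (5.81 and 6.62) and the highest GATA6 (8.86 and 9.03). The other early differentiation markers, TBXT, SOX17, AFP and CDX2, are not drawn. Of these, TBXT was highest in KB10973 colony 3 (7.34), and AFP did not set KB10460 colonies 2 and 3 apart.

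The third question was whether the change from fibroblast to iPSC differed between the animals. In each donor there is 1 fibroblast array, so the comparison takes its spread from the colonies. No member was called (0, against 3.42% of all genes), and 4 of 38 members had an unadjusted p under 0.05, as did 2073 of 11963 genes. The log2 change of S100A4 was -6.06 in KB10460 and -7.09 in KB10973, a difference of -1.03 (limma, adjusted p = 0.27). S100A6 changed by -5.52 in KB10460 and -5.00 in KB10973, CAV1 by -4.14 and -3.36, and ANXA1 by -2.82 and -2.13. For S100A10 the values were 0.66 and -0.20, a difference of -0.85 (adjusted p = 0.23). Without KB10460 colony 1, ANXA1 (1.21, adjusted p = 0.043) and S100A4 (-0.78, adjusted p = 0.048) were called. In that setting 1.96% of all genes were called higher and 2.97% lower, so 2 of 38 members is close to the background.

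Partners of these proteins were read from lists of textbook partners. Of 13 measured caveola genes of 14, 3 were lower, 1 was higher and 9 were not called, with a median log2 difference of -0.08 against -0.00 over all genes, of which 11.5% were lower and 15.2% higher. CAVIN1, the cavin that caveola formation requires, was 8.57 and 8.52 in the fibroblasts and 6.36 to 7.22 in the colonies (-1.69, limma, adjusted p = 0.00025). EHD2, an ATPase at the caveola neck, was lower with a difference of -1.34 (adjusted p = 0.00011), and CAVIN3 with -0.91 (adjusted p = 0.00021). FLOT1, a flotillin of membrane microdomains, was higher by 0.93 (adjusted p = 0.0019).

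Of 22 measured annexin and S100 partners of 24, 3 were lower, 3 were higher and 16 were not called, with a median of -0.15. Over all genes 11.5% were lower and 15.2% higher, so the share of this list called was close to the background each way. MYOF, a ferlin of membrane repair, was lower with a difference of -3.90 (adjusted p = 8.8e-06), AHNAK, a scaffold bound by ANXA2 and S100A10, with -2.14 (adjusted p = 3.6e-06) and MYH9, the myosin bound by S100A4, with -0.72 (adjusted p = 0.027). The MYH9 change was -1.23 in KB10460 and -0.21 in KB10973, and that difference passed the test (1.01, adjusted p = 0.020). KDR, a receptor for VEGF, was higher by 2.81 (adjusted p = 9.2e-05), EZR, a link between membrane and actin, by 1.82 (adjusted p = 0.00012) and CACYBP, which binds S100A6, by 0.65 (adjusted p = 0.0043). CAPN2, a calpain, was not called (-0.96, adjusted p = 0.17). In CAPN2 too, KB10460 colonies 2 and 3 were lowest among the colonies (7.47 and 7.82, the others 8.68 to 9.45).

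Of 20 galectin ligands and glycan enzymes, all measured, 9 were lower, 1 was higher and 10 were not called, with a median of -0.44, beside 11.5% of all genes lower and 15.2% higher. The ligands CD44 (-3.24, adjusted p = 0.00019), NRP1 (-3.22, adjusted p = 0.00038) and ALCAM (-2.40, adjusted p = 0.00051) and the lysosomal LAMP2 (-2.29, adjusted p = 9.2e-05) fell furthest. NRP1 and ALCAM fell further in KB10460 (-4.15 and -3.29) than in KB10973 (-2.28 and -1.52), with differences of 1.87 (adjusted p = 0.0082) and 1.77 (adjusted p = 0.034). ITGB1, LAMP1, MGAT2, ST3GAL4 and B4GALT1 were also lower. ST6GAL1, a sialyltransferase whose product blocks galectin-1 binding, was higher by 1.94 (adjusted p = 0.00015).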

How the data were processed

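Per the labels, RNA of 8 orangutan cultures was hybridized to one-colour arrays, and the authors normalized the arrays with RMA and deposited log2 values of 22277 probe sets. RMA equalizes the arrays, so a change of most transcripts in 1 cell type is removed. Precision is limited by the number of arrays, 2 of fibroblasts and 6 of iPSCs, and 0 columns lacked a sample.

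Members and lists were chosen with earlier results of these data known. The text names every member, further probe sets where their call differed, and of each partner list up to 4 called genes with the largest change each way. CAPN2, ITGB1, LAMP1, MGAT2, ST3GAL4, B4GALT1 and the marker genes were named after their values were seen. Genes were named from the platform annotation, where 19070 probe sets had 1 symbol, 1043 several and 2164 none.

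From the deposited log2 values, limma 3.58.1 in R 4.3.3 (lmFit, eBayes) compared 6 iPSC with 2 fibroblast arrays, 3 with 3 colonies of the donors, and the change between donors, with Benjamini-Hochberg adjustment over all probe sets. The SPLOSH false discovery rate of the methods was not used here. Figures were drawn in Python 3.11.15. The scripts were tested on simulated data. Fibroblasts and iPSCs of a donor are paired by animal, and the donor differences in fibroblasts and in iPSCs had r = 0.02 across probe sets. Alternatives changed the block, scaling, low-value filter, variance moderation, array weights, adjustment, thresholds and probe sets, and left out each array; choosing probe sets by cell type means and averaging KB10973 colonies 1 and 2 were added after seeing the data.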

Additional observations from a re-analysis of the deposited data

Results flagged for a closer look

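In 4 of 38 members a single colony stood apart from the other 5 by more than the 95% critical value of Dixon's ratio, the gap to the nearest colony over the whole range, and chance alone flags about 1 in 20 groups. The share over all genes was not computed, so 4 of 38 cannot be called many or few for these arrays. In ANXA4, KB10460 colony 1 was at a log2 value of 5.95, with the others at 7.12 to 7.82 (ratio 0.627). In ANXA6, KB10460 colony 2 was at 6.40, with the others at 5.88 to 6.03 (ratio 0.718). In S100A13, KB10973 colony 3 was at 6.36, with the others at 6.84 to 7.06 (ratio 0.685). In S100A4, KB10460 colony 1 was at 5.06, with the others at 4.30 to 4.56 (ratio 0.663).

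Among the 55 measured partner genes, 3 changed by a different amount in the 2 donors (5.45%, against 3.42% of all genes). The change of KB10973 minus that of KB10460 on the log2 scale was 1.01 for MYH9, 1.77 for ALCAM and 1.87 for NRP1 (limma, adjusted p = 0.020, 0.034 and 0.0082). Each donor had 1 fibroblast array in this comparison.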

How the results depend on the processing

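The members called, 12 in the comparison reported, ranged from 9 to 12 with each array left out (8 to 12 lower, 0 to 1 higher, median log2 difference -0.20 to -0.15). They were 8 with weighted arrays and with Benjamini-Yekutieli adjustment, 10 with colonies averaged within donor and with a 2-fold threshold. With the probe set chosen by cell type means they were 13, and with no fold threshold 15, of which 1 (ANXA3) was higher. In the order of these settings, 10.7%, 8.94%, 8.15%, 7.41%, 11.7% and 15.7% of all genes were lower. The shares of all genes called higher were 13.8%, 11.3%, 10.5%, 9.7%, 15% and 19.5%. With low values filtered, which leaves 17 members, the median difference was -1.35, against 0.15 over all genes kept. A gene was kept if any array reached 5, so members high only in fibroblasts passed through that group. The larger median thus follows in part from the filter. With the donor as a replicate block 12 were called, and with the colony number as a replicate block between donors 0 were. The 8 members called in all 20 settings were CAV1, LGALS1, LGALS3, LGALS8, S100A4, S100A6, S100A11 and ANXA7. The 2-fold threshold is not counted among the 20, and these 8 members pass it too. No direction reversed among called members. Leaving out an array gave 0 to 2 calls between donors and 0 to 2 for the difference of change. The 2 calls of each came without KB10460 colony 1, the highest of that animal's colonies in ANXA1, CAV1 and S100A4. There 0.351% of all genes were higher and 0.468% lower between donors, and 1.96% and 2.97% for the change. Median centring left 16% of all genes higher and 10.7% lower. Signal under 5 on all arrays in 21 members limits what can be read from their values.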
